A study of Lolium arundinaceum with 6 samples.

Results

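Leaves of tall fescue (Lolium arundinaceum, also named Festuca arundinacea) after 12 h at 38 °C were compared with leaves of unheated plants kept at 23 °C, over every assembled transcript group, or unigene, with enough counts for a test. Of the 179680 unigenes in the table, 28005 were tested, and 4 of the 6 sequenced libraries belong to this comparison. The control group, marked 0 h, consists of libraries control 1 and control 2, and the heated group of libraries heat 12 h 1 and heat 12 h 2. All plants carried the genotype label WT and were seedlings of the variety Fire Phoenix II, grown on medium with sucrose under 16 h of light and 8 h of dark, moved to pots of medium at 8 days and heated 2 days later. The plants were whole young seedlings on medium, not turf in soil. The study states 2 biological replicates per condition, without saying whether plants were pooled, and the p-values below measure the spread between these libraries. No unheated library of 12 h was analysed here, so that hours of heat and time of day cannot be told apart for any unigene. The remaining libraries, of heat 2 h, helped to estimate the spread and are otherwise named only where stated.

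Cool-season grasses such as tall fescue grow best in mild temperatures. In plant cells heat unfolds proteins, and heat shock factors then switch on chaperones, among which small heat shock proteins hold unfolding proteins and HSP70 with its partners refolds them. Photosynthesis, growth hormones, membranes and cell walls are known to respond as well.

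Library totals ran from 6349775 to 7891566 counts in the 4 libraries compared, so that 3 counts in a library correspond to 0.385 to 0.499 CPM. CPM, the counts per 1000000 counts of the library after TMM scaling, are not corrected for transcript length, so levels are compared within a unigene only. Between replicates, the log2 difference had an SD over 9013 unigenes of 0.224 for the controls, 0.228 for heat 12 h and 0.483 for heat 2 h. Leaf mesophyll markers were plentiful under both conditions. Their summed level over 12 unigenes, 10 of them tested, was 31832 and 32555 CPM in the controls and 19019.7 and 18578 CPM after heat. Of the 10 tested, 2 were called up and 5 down. Guard cell markers stood at 10.1 and 11.9 CPM in the controls and 11.1 and 10.3 CPM after heat. Of these 3, 1 was called up and 1 down, both unigenes of MYB60. Anther and meiosis markers were low, at 5.06 and 5.64 CPM in the controls and 22.1 and 19.5 CPM after heat, with 2 of 3 called up. SUC2 (c145471_g1), the sucrose carrier of phloem companion cells and the 1 phloem marker, stood at 8.69 and 9.74 CPM in the controls and 0.665 and 1.34 CPM after heat. Xylem markers summed to 136 and 134 CPM in the controls and 288 and 247 CPM after heat, where 3 of the 6 were called down and 1, IRX10 (c152297_g2), up. Root markers summed to 81.3 and 75.9 CPM in the controls and 36.7 and 28.5 CPM after heat, with 1 of 2 called down, and the other, FRO2 (c156121_g1), is also a member of the mineral transport group and was not called. In a bulk leaf sample, fewer cells of a type and less RNA per cell cannot be told apart, and the part of these shifts in the results below was not tested.

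After 12 h of heat, edgeR called 7078 unigenes up and 6531 down, with limits of 2 for the fold change and 0.05 for the p adjusted after Benjamini and Hochberg. That is 25.3% of the unigenes tested up and 23.3% down, or 48.6% in either direction, and these shares are the background for every group below. The heated libraries lay above both controls in 41.6% of the unigenes tested and below both in 40.9%. The median log2 fold change over all unigenes tested was close to 0 with TMM scaling and moved to -0.11 with library totals alone. With that scaling 6571 unigenes were up and 7171 down, so that the balance between rises and falls depends on the scaling.

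Rises reached larger fitted sizes than falls. Of the unigenes called up, 2608 had a fitted change of at least 8-fold and 1334 of at least 32-fold, against 1435 and 370 of those called down. Many of the largest belong to unigenes with 0 to 3 counts in a group, where the fitted size depends on a prior count. Among the abundant unigenes, with 100 to 1000 CPM on average, 27.7% were called up and 14.9% down. Above 1000 CPM, 17 of 115 were called up and 17 down, or 14.8% each way. In the range of 1 to 10 CPM the shares were 25.6% and 25.7%. The lowest unigenes had less power and follow lines set by 0 and 1 count in the plot of fold change against abundance.

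**Figure D1:**
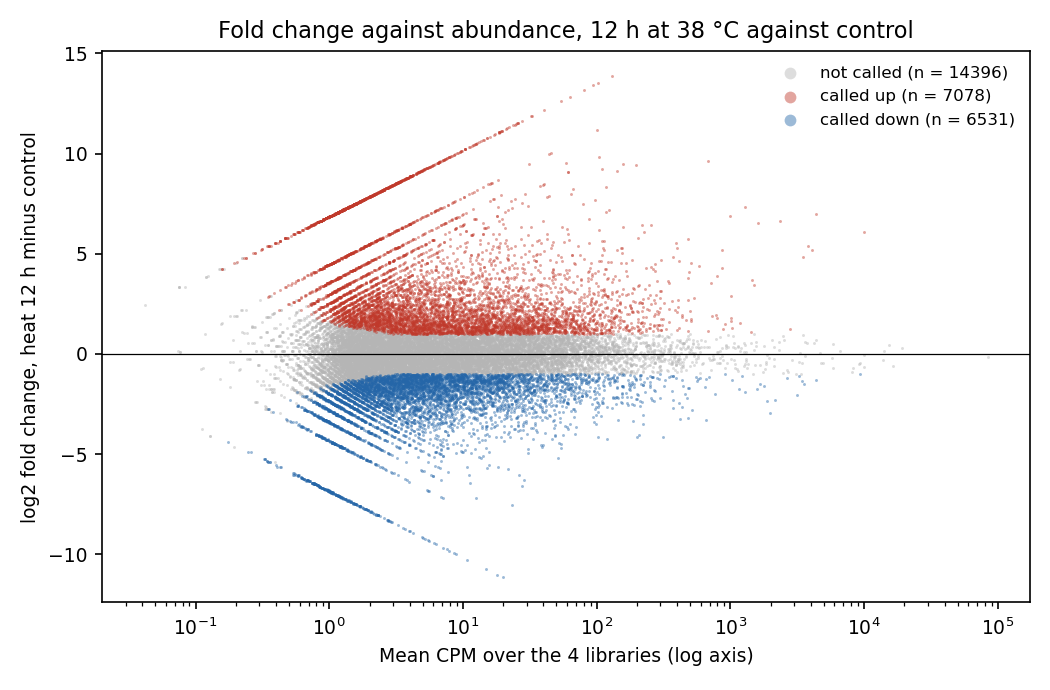
Fold change against abundance for the 28005 unigenes tested. Each point is a unigene, with its mean CPM over the 4 libraries on a log axis and its log2 fold change on the vertical axis, where positive values are higher after heat. Red points were called up (7078), blue points down (6531) and grey points neither (14396), and the straight streaks at low abundance are unigenes with 0 or a few counts in a group, whose fitted fold change depends on a prior count.

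Where counts were at 0 in a group, a rise or fall can only be bounded. Of the unigenes called up, 891 had no count in either control and 844 had 1 to 3 counts in both controls together. Against a floor of 3 counts over the group, 787 of the 891 were at least 8-fold higher after heat. In the other direction, 287 unigenes called down had no count after heat and 179 of them were at least 8-fold lower. None of the 891 carries a name in the study's tables used here. Of the 287, 3 do: a DNAse I-like protein (c135573_g1) and a pair of SAUR proteins described with the auxin group.

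The counts in a library moved between sets of unigenes. Unigenes called up held 6.02 and 5.92% of the counts of control 1 and control 2, and 29.2 and 29.1% after heat. Unigenes called down held 21.3 and 21.6% of the control counts and 6.08 and 6.21% after heat. The sets were chosen by this contrast, so these shares describe how much RNA the calls cover. The 95% Wilson intervals of these shares reach at most 0.0388 percentage points to either side, for counting error only. In the controls 148 and 143 unigenes held 50% of the counts, against 211 and 221 after heat, so that heated leaves spread their counts over more unigenes. Among the 100 unigenes with the most counts, 97 were shared by both controls, 99 by both heated libraries and 69 by all 4, and 27 were in both heated lists and in neither control list. HSP21 (c141018_g3) moved from rank 370 and 346 by counts in the controls to rank 3 in both heated libraries. A unigene with HSP18.2 as its best match (c140891_g2) moved from rank 1524 and 1723 to rank 9. The order is by counts and not by transcript number, since lengths were not used.

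**Figure D2:**
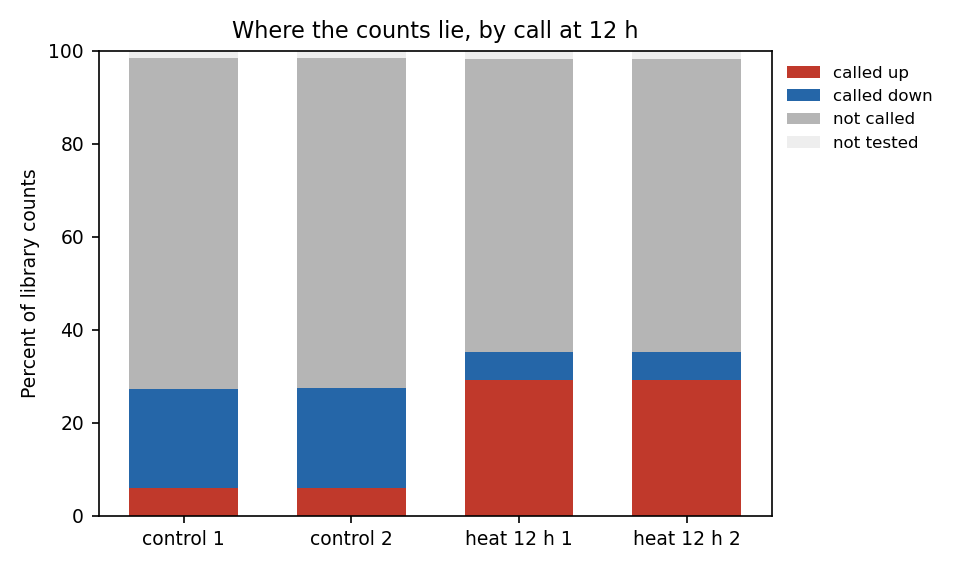
Percent of each library's counts in unigenes called up, called down, not called and not tested, for control 1, control 2, heat 12 h 1 and heat 12 h 2. The red share is 6.02 and 5.92% in the controls and 29.2 and 29.1% after heat, and the blue share falls from 21.3 and 21.6% to 6.08 and 6.21%.

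Groups of named unigenes were drawn up from the study's tables by description, 23 groups with 506 distinct unigenes, of which 481 were tested. The rows used were part of the study's list, mostly matches to loci of a single Arabidopsis chromosome. A group may thus hold only part of its pathway, and its counts, median and sum describe the members used. Names are those of the best Arabidopsis match, and members of a family can share reads, so levels of close copies are uncertain. The tables list, for the most part, unigenes that the study called changed in these same libraries, so a high share of calls in a group was built in and is not independent evidence of its direction. Of the 481, edgeR called 193 up and 222 down. The plot of group members shows each of the 481 by group.

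**Figure D3:**
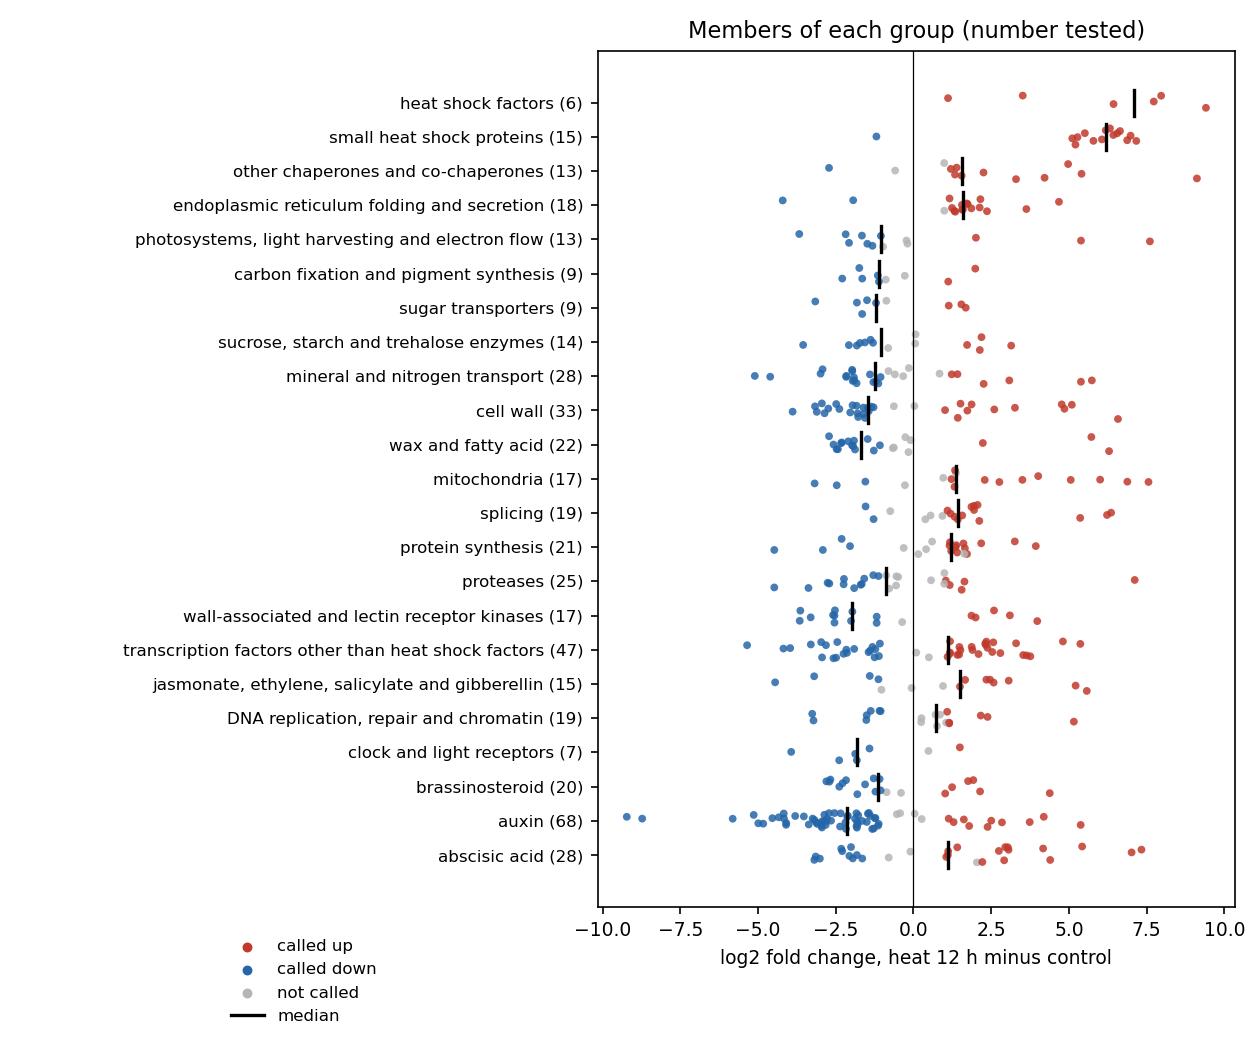
Log2 fold change (heat 12 h minus control) of the tested members of 23 groups, 1 row per group with the number tested in parentheses. Points are unigenes, red where called up, blue where called down and grey where not called, and the black bar is the median, which is 7.08 for heat shock factors and -2.15 for auxin genes. Points of members with 0 to 3 counts in a group, among them the 2 auxin points farthest to the left, depend on a prior count.

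Heat shock factors are transcription factors that bind heat shock elements in promoters. All 6 tested rose, with a median log2 fold change of 7.08. HSFA3, HSFA6B, HSFB2A and HSFB2B have primers in the study, which picked such genes from those it found highly induced by heat in these libraries. Their rise, and with it the median, was thus largely built in. HSFA3 (c151159_g1), which in Arabidopsis keeps the response going after the first factors have acted, stood at 0.474 and 0.641 CPM in the controls and 348 and 444 CPM after heat. Its log2 fold change was 9.41 (standard error, SE, 0.30, adjusted p = 1.18e-09, edgeR). HSFA6B (c152640_g1), tied to abscisic acid in Arabidopsis, went from 6.64 and 5.13 to 556 and 457 CPM. In both unigenes the heated libraries lay far above the controls.

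The class B factors, which lack the activation domain of class A and mostly repress, rose too. HSFB2A (c139552_g1) stood at 0.632 and 0.385 CPM in the controls and 141 and 116 CPM after heat, a log2 fold change of 7.97 (SE 0.38). HSFB2B (c135926_g1) had 2 counts in the controls together, and its counts per library size were 238-fold (95% interval of the counts 65.5 to 1973) higher after heat. The unigenes of HSFA1D, of the class that starts the response, had the smallest changes. From 5.06 and 6.54 to 61.8 and 71.9 CPM, the unigene c142961_g2 had a log2 fold change of 3.51 (SE 0.24). The other, c146225_g1, went from 8.85 and 9.74 to 18.61 and 21.6 CPM, a log2 fold change of 1.11 (SE 0.26). With library totals alone its value was 0.997 and missed the 2-fold limit. Neither pair of groups overlapped.

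Of the unigenes named here, 20 have primer pairs in the study, and 4 pairs are shown because they mark the unigenes of a factor, a chaperone, a protease and an electron carrier whose levels are described with them. They are written 5′ to 3′, with the forward primer first, in lower case because no base is singled out.
HSFA3 (c151159_g1) forward: aggtccaagggaaagaatgtg
HSFA3 (c151159_g1) reverse: caagtttgctcaccatctgc
HSP17.6II (c148595_g1) forward: accgaagcaaatacccagatc
HSP17.6II (c148595_g1) reverse: caccctgccctccattc
FTSH6 (c144626_g1) forward: aaacaagaggctggataccg
FTSH6 (c144626_g1) reverse: ccttaacggagatgcggtc
CYTC-2 (c134256_g1) forward: tgaatggtctgtttgggagg
CYTC-2 (c134256_g1) reverse: caggtagtcatacagcgtcttc

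Small heat shock proteins hold unfolding proteins until other chaperones act. Of 15 tested, 14 rose and 1 fell, and the median log2 fold change was 6.19. Their summed level went from 568 and 578 CPM in the controls to 42459 and 41612 CPM after heat. HSP21 (c141018_g3), the chloroplast member, stood at 288 and 305 CPM in the controls and 19351 and 20238 CPM after heat, a log2 fold change of 6.06 (SE 0.15, adjusted p = 1.46e-10, edgeR). In all 14 risers the heated libraries lay above both controls. HSP17.6II (c148595_g1), a class II protein of the cytosol whose primers are given above, went from 51.7 and 41.3 to 4887 and 4393 CPM. HSP22.0, the member of the endoplasmic reticulum, was matched by c152923_g1, at 16.8 and 16.8 CPM in the controls and 2017 and 1923 CPM after heat, and by c152923_g5, at 32.2 and 35.4 and 3219 and 3138 CPM. HSP23.6 (c138951_g1), the mitochondrial member, rose from 1.11 and 0.513 to 66.0 and 61.8 CPM. The members named in this paragraph, of chloroplast, mitochondrion, endoplasmic reticulum and cytosol, thus all rose. In none of them did the control and heated libraries overlap.

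HSP18.2, a protein of cytosolic class I, was the best match of 7 unigenes, and all 7 were called up. Their log2 fold changes ran from 5.11 (c202987_g1, SE 0.68) to 7.17 (c83237_g1, SE 0.45). The first of these had 0 and 0.513 CPM in the controls and 12.5 and 8.20 CPM after heat, and the other 0.158 and 0.385 and 47.2 and 39.1 CPM. The unigene c140891_g2 went from 72.2 and 64.5 to 9071 and 8226 CPM. The unigene with primers, c129854_g1, went from 6.48 and 7.82 to 399.7 and 397 CPM. These 7 may share reads. The 1 faller of the group was an HSP20-like protein (c144988_g1), at 28.8 and 22.9 CPM in the controls and 12.3 and 10.3 CPM after heat, which fell by 1.19 on the log2 scale (SE 0.22).

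Other chaperones and their partners mostly rose: of 13 tested, 10 were called up and 1 down, with a median log2 fold change of 1.55. HSC70-1 (c154957_g1), an HSP70 of the cytosol, stood at 178 and 172.7 CPM in the controls and 7576 and 7268 CPM after heat, a log2 fold change of 5.41 (SE 0.15, adjusted p = 2.55e-10, edgeR). A DnaJ-domain protein (c142517_g1), of the family that hands substrates to HSP70, went from 0.316 and 0.641 to 308 and 261 CPM. The stress-inducible protein Hop2 (c152353_g1), which bridges HSP70 and HSP90, went from 0.316 and 0.256 to 9.47 and 9.40 CPM. These 3 had the largest log2 fold changes of the group. A TCP-1/cpn60 chaperonin (c150905_g1), of the ring-shaped folding machines, rose from 21.03 and 21.8 to 106 and 98.7 CPM, and a GrpE co-chaperone (c143791_g1), which resets HSP70 of organelles, from 102 and 97.4 to 242 and 218 CPM. The 1 member that fell was an HSP40/DnaJ peptide-binding protein (c129787_g1), at 3.64 and 2.82 CPM in the controls and 0.665 and 0.298 CPM after heat.

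Proteins of the endoplasmic reticulum, where secreted proteins are folded and sorted, rose in 15 of 18 tested and fell in 2, with a median log2 fold change of 1.58. A Bax inhibitor-1 family protein (c144458_g1), of a family that restrains cell death at this membrane, went from 24.5 and 20.8 to 596 and 563 CPM, a log2 fold change of 4.68 (SE 0.17). PDIL2-2 (c151179_g1), a disulfide isomerase, stood at 43.6 and 40.5 CPM in the controls and 543 and 499 CPM after heat. BZIP60 (c146416_g1), the transcription factor of the unfolded protein response, rose from 21.97 and 29.4 to 113 and 116 CPM. The translocon protein SecY (c149471_g1) and the associated RAMP4 protein (c128735_g1), parts of the channel that admits new proteins, had log2 fold changes of 1.34 and 1.74 (SEs 0.16 and 0.15). Folding enzymes, channel parts and the factor that controls them were thus all among the unigenes called up.

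**Figure D4:**
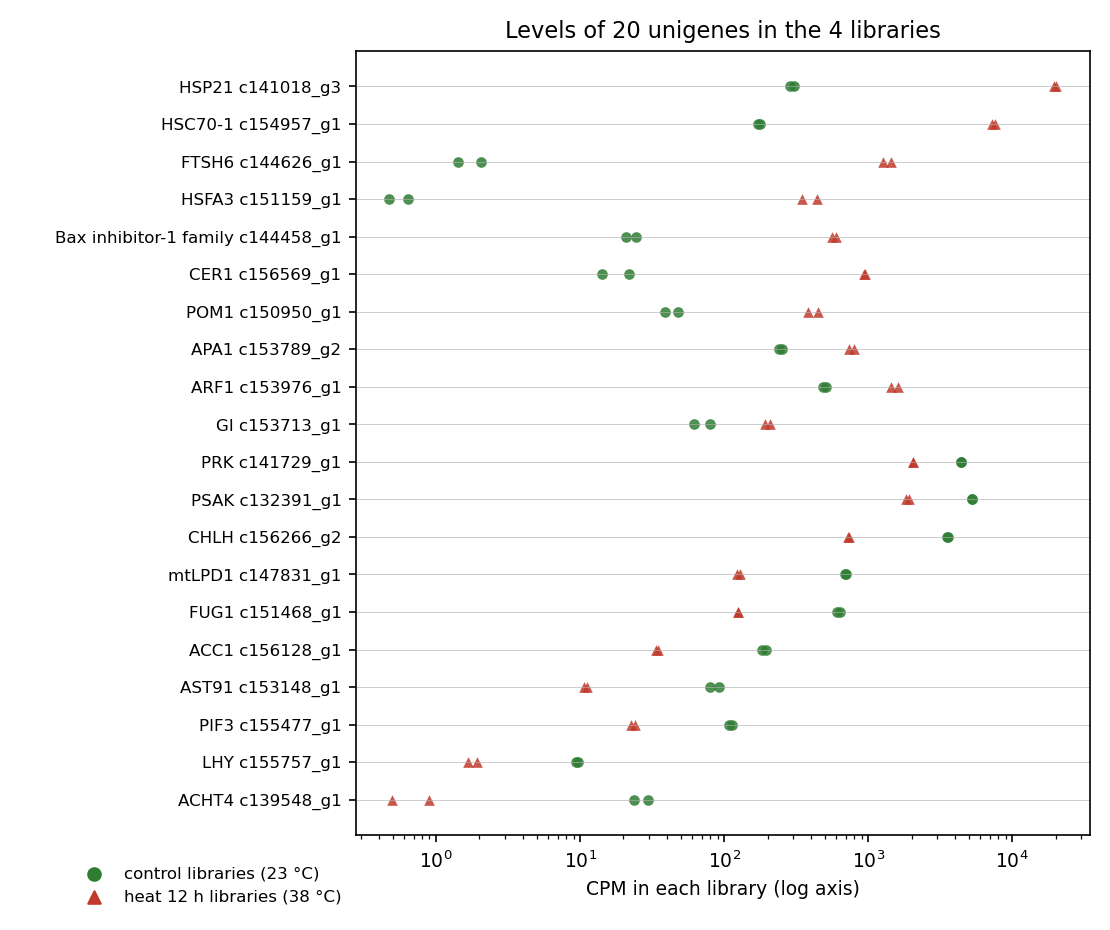
Levels of 20 unigenes in each of the 4 libraries, in CPM on a log axis. Green circles are the control libraries and red triangles the libraries of 12 h of heat. No unigene shown has overlapping groups, the first 10 from HSP21 to GI (c153713_g1) being higher after heat and the rest, from PRK to ACHT4, lower.

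Many photosynthesis genes were lower after heat. Among subunits of the photosystems, light harvesting and electron flow, 7 of 13 tested were called down and 3 up, with a median log2 fold change of -1.05. PSAO (c133500_g3), a small subunit of photosystem I, stood at 5089 and 5182 CPM in the controls and 1241 and 1199 CPM after heat, and fell by 2.07 on the log2 scale (SE 0.14, adjusted p = 2.08e-07, edgeR). PSAK (c132391_g1), another subunit of photosystem I, went from 5229.7 and 5259 to 1904 and 1842 CPM. PSBS (c137256_g1), which lets photosystem II release excess light as heat, had 1933 and 1957 CPM in the controls and 1011 and 964 CPM after heat and missed the 2-fold limit. HCF173 (c149911_g1), needed to translate a core protein of photosystem II, fell by 1.66 on the log2 scale (SE 0.15), and NDF1 (c143814_g1), of the cyclic electron flow complex, by 1.32 (SE 0.14). In Arabidopsis all of these are nuclear genes for plastid proteins.

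The light-harvesting protein LHCB1.3 was matched by 4 tested unigenes that did not move together. The one of these 4 with the most counts, c150075_g2, went from 90.1 and 131 to 25.8 and 23.1 CPM. The unigene c166098_g1 went from 10.3 and 14.2 to 1.33 and 0.597 CPM. A different one, c138665_g1, had 1 count in both controls together and 18.45 and 15.96 CPM after heat, 242-fold (95% interval of the counts 42.99 to 9604) higher at equal library size. The unigene c109639_g1 was not called. A minor unigene of PSAK (c178872_g1) also had 1 control count and was called up, with 5.32 and 2.09 CPM after heat. Both risers had 1 control count, and among the named unigenes of each match the one with the most counts fell. Unchanged unigenes mostly carry no name here, so a match may have others with more counts. An unnamed unigene, c150075_g4, comes from the same assembly component as c150075_g2. It had rank 8 and 6 by counts in the controls and rank 4 in both heated libraries. Its log2 fold change was 0.47 (SE 0.15), and it was not called. Whether it also matches LHCB1.3 was not tested. LHCB1.3, PSAO, PSAK and PSBS also belong to the mesophyll markers, so the fall of this group and of the marker sum is partly a measurement of the same unigenes.

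Carbon fixation and pigment synthesis showed a like split, with 5 of 9 tested called down, 2 up and a median log2 fold change of -1.11. Phosphoribulokinase PRK (c141729_g1), which regenerates the acceptor of carbon dioxide, went from 4429 and 4417 to 2035 and 2056 CPM, a fall by 1.11 on the log2 scale (SE 0.14). CHLH (c156266_g2), a subunit of the magnesium chelatase that commits porphyrin to chlorophyll, stood at 3591 and 3542 CPM in the controls and 732 and 724 CPM after heat and fell by 2.29 (SE 0.15, adjusted p = 1.23e-07, edgeR). NPQ1 (c151527_g1), the violaxanthin de-epoxidase of photoprotection, fell by 1.74 on the log2 scale (SE 0.17). GAPA-2 (c141868_g1), a Calvin cycle dehydrogenase, kept 12755 and 12461 CPM against 15031 and 15569.8 CPM in the controls and was not called. Going up was PDS1 (c146706_g1), the dioxygenase that feeds tocopherol and plastoquinone synthesis, from 68.5 and 68.5 to 264 and 279 CPM.

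FTSH6 (c144626_g1), a protease of the chloroplast, belongs to no group and had the largest rise of any named unigene with more than 3 control counts and at least 10 CPM on average. It stood at 2.06 and 1.41 CPM in the controls and 1265 and 1443 CPM after heat, a log2 fold change of 9.62 (SE 0.23, adjusted p = 1.35e-10, edgeR). The primers shown above were designed to this unigene. ACHT4 (c139548_g1), a thioredoxin-like protein of the chloroplast, fell from 23.55 and 29.6 CPM in the controls to 0.499 and 0.895 CPM after heat, and its second unigene (c139548_g2) went from 15.97 and 25.5 to 0.499 and 1.19 CPM.

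Sugar transporters and the enzymes of sucrose, starch and trehalose moved both ways. Of 9 transporters tested, 3 were called up and 5 down (median log2 fold change -1.21), and of 14 enzymes 4 up and 7 down (median -1.06), or 4 down without heat 12 h replicate 1. SUC2, whose values are given with the markers, fell by 3.16 on the log2 scale (SE 0.42). SWEET1 (c145154_g1), a glucose channel, went from 51.4 and 58.6 to 18.78 and 16.3 CPM, and all 3 of its unigenes were called down. A unigene of the hexose carrier STP1 (c150481_g1) rose, from 56.4 and 53.8 to 129.6 and 112 CPM, a log2 fold change of 1.13 (SE 0.22), whereas another STP1 unigene, c147386_g1, was called down, from 21.03 and 25.001 to 7.98 and 8.35 CPM, and the third was not called. GWD1 (c156678_g1), which phosphorylates starch for its breakdown, fell from 190.0 and 198 to 77.3 and 71.7 CPM. UGE1 (c146869_g1), which interconverts UDP-sugars, rose from 33.7 and 27.2 to 103 and 97.6 CPM. Of 5 unigenes matching TPS7, of the trehalose-phosphate synthase family, 2 were called up and 2 down, c137648_g1 from 3.48 and 3.97 to 29.9 and 36.4 CPM and c155740_g2 from 61.3 and 64.2 to 17.1 and 18.35 CPM. TPS9 (c151375_g1), of the same family, fell by 3.55 on the log2 scale (SE 0.33).

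Carriers of minerals, nitrogen and amino acids fell more often than they rose, 17 against 6 of 28 tested, with a median log2 fold change of -1.25. The sulfate transporter AST91 (c153148_g1) went from 92.5 and 80.3 to 11.1 and 10.6 CPM, a fall by 2.99 on the log2 scale (SE 0.26). KUP10 (c147313_g1), a potassium carrier, went from 7.90 and 7.82 to 0.831 and 1.19 CPM. The proline carrier PROT1 (c131807_g1) rose from 1.11 and 1.15 to 49.0 and 47.1 CPM, a log2 fold change of 5.39 (SE 0.35), and the metal carrier NRAMP2 (c153025_g1) from 4.11 and 3.46 to 34.4 and 29.7 CPM. Another unigene of NRAMP2 was called down, as the plot of unigenes with the same match shows.

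Cell wall genes were called down in 20 of 33 tested and up in 11, with a median log2 fold change of -1.46, yet the summed level of the group went from 458 and 434 CPM to 903 and 778 CPM, because members with many counts rose. POM1 (c150950_g1), a chitinase-like protein needed for cellulose deposition, stood at 47.6 and 39.0 CPM in the controls and 451 and 379.9 CPM after heat, a log2 fold change of 3.26 (SE 0.17, adjusted p = 3.06e-08, edgeR). IRX10 (c152297_g2), a xylan synthase subunit, rose from 90.7 and 91.7 to 264 and 226 CPM, while 2 of its other 3 tested unigenes were called down. CCR1 (c149880_g1), an early enzyme of lignin synthesis, fell from 41.9 and 36.03 to 13.3 and 12.2 CPM, and of its other 2 unigenes 1 was called down and 1 up. Expansin EXPA10 (c150220_g2), which loosens walls for growth, went from 11.7 and 7.95 to 0.665 and 1.94 CPM. The callose-binding protein PDCB3, which sits at plasmodesmata, was matched by 3 unigenes, all called up, c131771_g2 from 0 and 0.641 to 12.3 and 12.8 CPM. Wall-associated and lectin receptor kinases, which sense the wall or its fragments, were called down in 11 of 17 tested and up in 5 (median log2 fold change -1.97), or up in 3 without control replicate 2 or without heat 12 h replicate 1. A lectin kinase (c155573_g1) went from 13.3 and 13.97 to 6.48 and 5.52 CPM and WAK3 (c146350_g1) from 14.2 and 14.2 to 1.99 and 2.83 CPM.

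Wax and fatty acid genes were mostly lower after heat. Of 22 tested, 14 were called down and 3 up, and the median log2 fold change was -1.68. Their summed level nevertheless rose, from 1042 and 1052 CPM in the controls to 1443.5 and 1393 CPM after heat. Acetyl-CoA carboxylase ACC1 (c156128_g1), which makes the building block for elongation, went from 182 and 196 to 33.6 and 34.5 CPM, a fall by 2.47 on the log2 scale (SE 0.29), and ACC2 (c156540_g1) from 161 and 156 to 43.2 and 42.8 CPM. The elongase KCS2 (c138488_g1) fell by 1.47 (SE 0.17). CER1, which makes the alkanes of the leaf wax, rose in both its unigenes, as did 1 unigene of the elongase KCS4 (c140499_g1). The CER1 unigene c156569_g1 stood at 21.8 and 14.2 CPM in the controls and 953 and 939.7 CPM after heat, a log2 fold change of 5.72 (SE 0.21, adjusted p = 2.94e-09, edgeR), and c120885_g1 went from 0.474 and 0.256 to 29.9 and 28.3 CPM. Unigenes of the carboxylase thus fell where those of the alkane step rose, and 5 members, among them unigenes of the exporter ABCG11 and of KCS5, were not called.

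Mitochondrial genes were called up in 11 of 17 tested and down in 3, with a median log2 fold change of 1.37. Cytochrome c, the mobile electron carrier, was matched by c134256_g1 (CYTC-2), from 0.474 and 0.128 to 35.6 and 35.4 CPM, and by c134256_g2 (CYTC-1), from 33.5 and 32.6 to 232 and 216 CPM. The import channel protein TIM23-1 (c148029_g1) went from 6.17 and 6.28 to 96.9 and 105 CPM. The ATPase subunit ORFB (c135638_g3), a gene of the mitochondrial genome in Arabidopsis, had 1 count in both controls together and 16.6 and 16.7 CPM after heat, 235-fold (95% interval of the counts 41.8 to 9341) higher at equal library size. Among the fallers, the lipoamide dehydrogenase mtLPD1 (c147831_g1), shared by the glycine and pyruvate complexes, went from 697 and 692 to 123 and 128 CPM, a fall by 2.47 on the log2 scale (SE 0.18). As mtLPD1 was the member with the most counts, the summed level of the group fell from 1086 and 1089 CPM to 776 and 773 CPM although most members rose.

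Splicing genes were called up in 13 of 19 tested and down in 2 (median log2 fold change 1.43), or down in 1 without control replicate 2 or without heat 12 h replicate 2. Of 4 unigenes matching the splicing factor Prp18, which acts in the second step of intron removal, 3 come from a single assembly component. Among them c142898_g1 stood at 1.42 and 1.67 CPM in the controls and 123 and 112 CPM after heat, and c142898_g3 at 0.790 and 0.513 and 54.0 and 53.4 CPM. The fourth, c148048_g1, from another component, had more counts in the controls and rose from 24.3 and 24.7 to 104 and 102 CPM. MEE63 (c140752_g1), the Mago protein of the exon junction complex, had a log2 fold change of 1.95 (SE 0.18).

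Protein synthesis genes rose in 12 of 21 tested and fell in 4, with a median log2 fold change of 1.21. Their summed level fell, from 889 and 891 CPM in the controls to 614 and 623 CPM after heat. A ribosomal protein of the L1p/L10e family (c145069_g1) went from 63.2 and 64.4 to 162 and 169 CPM, a log2 fold change of 1.37 (SE 0.15). FUG1 (c151468_g1), the initiation factor of chloroplast ribosomes, fell from 604.4 and 636 to 124 and 126 CPM. Proteases were called down in 12 of 25 and up in 5 (median log2 fold change -0.88). Their summed level rose, from 1442 and 1399.6 CPM in the controls to 1733 and 1623 CPM after heat. The vacuolar aspartic proteinase APA1 (c153789_g2) rose from 252 and 239.5 to 791 and 739 CPM, a log2 fold change of 1.64 (SE 0.15), while 2 other unigenes of APA1 were called down. Metacaspase 1 (c149464_g3), of a family tied to cell death, went from 94.7 and 88.3 to 24.1 and 24.6 CPM.

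Transcription factors other than heat shock factors split nearly evenly, with 24 of 47 tested called up, 21 down and a median log2 fold change of 1.097. ESR1 (c148430_g1), of the AP2/ERF family, went from 10.3 and 10.6 to 145 and 139 CPM, a log2 fold change of 3.76 (SE 0.20). SCRM2 (c140169_g2), a bHLH factor that pairs with stomatal regulators in Arabidopsis, rose from 0.632 and 2.18 to 41.05 and 42.2 CPM, and all 4 unigenes matching the GRAS factor SCL14 were called up, c155428_g1 from 21.7 and 20.6 to 123 and 128 CPM. PIF3 (c155477_g1), the bHLH factor bound by phytochrome, fell from 109 and 114 to 24.1 and 22.7 CPM, with 1 other unigene called down and 1 up, and the homeobox factor HB31 (c152822_g1) from 25.1 and 26.7 to 2.83 and 3.73 CPM. ATAF1 (c150305_g1), a NAC factor of stress responses, stood at 17.9 and 19.7 CPM in the controls and 43.04 and 37.6 CPM after heat, a log2 fold change of 1.097 (SE 0.33). It was no longer called with library totals alone, without control replicate 1 or without heat 12 h replicate 1.

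Many clock genes cycle over the day in plants, and no unheated library of 12 h was used. The group also holds light receptors and a receptor partner. Of its 7 tested unigenes, 5 were called down and 1 up, with a median log2 fold change of -1.82. Only LHY and GI in this group are clock genes. LHY (c155757_g1), a morning factor of the clock, went from 9.33 and 9.74 to 1.66 and 1.94 CPM, a fall by 2.39 on the log2 scale (SE 0.33). GI (c153713_g1), an evening gene, rose from 62.1 and 79.7 to 192 and 208 CPM, a log2 fold change of 1.49 (SE 0.19). A second, low unigene of GI (c142108_g1) stood at 1.74 and 3.46 CPM in the controls and 0.831 and 0.597 CPM after heat. It was called down, but not with DESeq2, without control replicate 2 or without heat 12 h replicate 2. The light receptor phytochrome A, PHYA (c145535_g1), went from 8.38 and 8.85 to 0.166 and 0.895 CPM. PKS2 (c147482_g1), a partner of phytochrome and phototropin, went from 23.9 and 29.7 to 12.5 and 7.76 CPM. The blue light receptor CRY2 had a unigene at 36.2 and 36.2 CPM in the controls and 56.3 and 44.7 CPM after heat that was not called (c155297_g1), and another that fell from 12.2 and 16.3 to 4.82 and 3.28 CPM (c140898_g1). Hours of heat and time of day cannot be told apart for any of these.

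Auxin, the hormone of cell expansion, had the largest group, with 54 of 68 tested called down and 10 up. The median log2 fold change was -2.15. Setting the 2 members at 0 to their bounds could not move it, since both bounds lie below the median. The summed level of the group rose all the same, from 1468 and 1499.5 CPM in the controls to 2419 and 2274 CPM after heat. ARF1, described below, was the member with the most counts and rose. SAUR proteins, small products of early auxin response genes, were among the deepest falls. No count was found after heat for c139599_g2, at 8.69 and 12.1 CPM in the controls and at least 44.7-fold lower, or for c140286_g1, at 8.69 and 6.15 CPM and at least 30.9-fold lower. Another SAUR unigene, c139599_g1, went from 9.64 and 6.92 to 0.166 and 0.597 CPM. PAP1 (c144562_g1), a repressor of the AUX/IAA family, fell from 33.0 and 32.7 to 3.16 and 2.54 CPM, by 3.53 on the log2 scale (SE 0.24, adjusted p = 2.31e-07, edgeR). PIN5 (c138127_g1), a carrier that moves auxin inside the cell, fell from 26.1 and 26.3 to 3.49 and 3.28 CPM.

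Auxin response factors, which bind the promoters of auxin genes, were mostly lower. All 6 tested unigenes matching ARF6 and all 6 matching ETT were called down. The ETT unigene c154012_g1 went from 14.7 and 12.1 to 2.16 and 2.39 CPM and the ARF6 unigene c150322_g1 from 8.22 and 7.18 to 1.16 and 1.04 CPM. ARF1 (c153976_g1), the unigene with the most counts in the group, rose, from 485 and 513 to 1616 and 1448 CPM, a log2 fold change of 1.62 (SE 0.13), while its other unigene, c143271_g2, was called down, from 9.80 and 7.82 to 3.32 and 4.03 CPM. Unigenes of the receptor TIR1 moved apart, c154565_g2 from 11.9 and 10.9 to 0.499 and 0.448 CPM and c136442_g1 from 0.949 and 0.769 to 14.1 and 9.10 CPM. ABP1 (c139704_g1), an auxin-binding protein of the endoplasmic reticulum, rose from 17.9 and 19.2 to 134 and 133 CPM. A dormancy/auxin associated protein (c140256_g1) fell from 86.2 and 91.03 to 23.599 and 27.3 CPM.

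**Figure D5:**
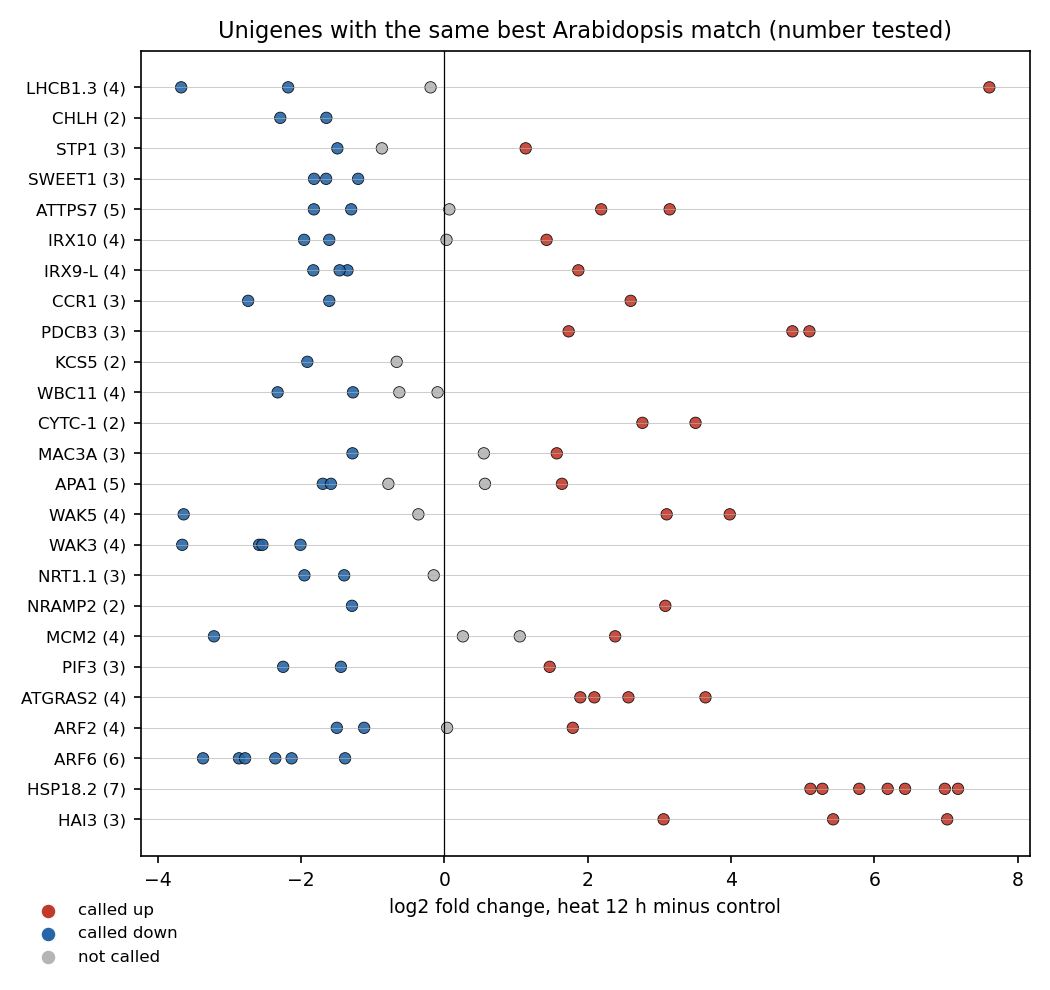
Log2 fold change (heat 12 h minus control) of unigenes that share a best Arabidopsis match, for 25 matches with the number tested in parentheses. Red points were called up, blue down and grey neither. All 7 unigenes of HSP18.2 lie to the right and all 6 of ARF6 to the left, while LHCB1.3, IRX10, CCR1 and APA1 have members on both sides.

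Abscisic acid genes, of the hormone of drought and stomatal closure, were called up in 15 of 28 tested and down in 10, with a median log2 fold change of 1.11. A kinase named in the study's tables as OST1/SnRK2.6 (c156184_g1), of the family that receptors release to act, went from 15.2 and 16.5 to 2602 and 2525 CPM, a log2 fold change of 7.33 (SE 0.17, adjusted p = 1.35e-10, edgeR). Another unigene with that name, c146214_g1, rose from 31.9 and 39.5 to 92.4 and 97.6 CPM. Synthesis and breakdown enzymes both rose. NCED3 (c155908_g1), which cleaves the carotenoid precursor, went from 0.474 and 0.385 to 8.31 and 10.3 CPM, and CYP707A4 (c150585_g1), a hydroxylase that inactivates the hormone, from 6.80 and 5.64 to 117 and 106 CPM. The phosphatase HAI3, which restrains the signal, was matched by 3 unigenes, all called up, c151730_g1 from 1.42 and 1.54 to 64.3 and 64.7 CPM. On the receptor side PYL5 (c141504_g1) fell from 124 and 119.7 to 14.3 and 13.3 CPM, by 3.15 on the log2 scale (SE 0.18), and PYL6 (c142220_g3) from 4.74 and 5.64 to 0.831 and 0.448 CPM. Both unigenes of CHLH, described with pigment synthesis, are counted in this group as well.

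Brassinosteroid genes, of the steroid hormone of growth, were called down in 12 of 20 tested and up in 6, with a median log2 fold change of -1.16. The receptor BRI1 (c154523_g1) went from 41.6 and 38.6 to 5.48 and 7.01 CPM, a fall by 2.67 on the log2 scale (SE 0.22, adjusted p = 8.38e-07, edgeR). The inhibitory kinase BIN2 (c149765_g1) fell from 56.1 and 52.1 to 24.1 and 20.4 CPM, and the responsive RING protein BRH1 (c149274_g2) from 21.5 and 25.9 to 3.66 and 3.13 CPM. BSL3 (c155518_g1), a phosphatase of the pathway, stood at 28.6 and 30.3 CPM in the controls and 64.5 and 55.0 CPM after heat. Its log2 fold change of 1.02 was just past the limit and was not called with library totals alone, with a minimum of 10 counts in every library, without control replicate 1 or without heat 12 h replicate 1. Of the other unigenes of BRI1 and BRH1, 1 of each was also called down and 1 of each was called up, c151242_g2 from 1.11 and 0.769 to 4.32 and 2.83 CPM and c129544_g1 from 1.58 and 1.15 to 5.15 and 6.86 CPM.

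Genes of jasmonate, ethylene, salicylate and gibberellin were called up in 8 of 15 tested and down in 4 (median log2 fold change 1.49), or down in 2 without control replicate 1 or without heat 12 h replicate 1. The TPR protein ETO (c144013_g3), of the ethylene pathway, went from 2.21 and 2.44 to 107 and 117 CPM, and GA2OX8 (c145230_g1), which inactivates gibberellin, from 0.790 and 0.897 to 32.6 and 31.8 CPM. CYP88A3 (c146660_g1), which makes gibberellin precursors, rose as well, from 3.004 and 3.97 to 20.3 and 21.9 CPM. LOX3 (c156390_g2), of jasmonate synthesis, had a log2 fold change of 1.49 (SE 0.19).

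Genes of DNA replication, repair and chromatin split, with 6 of 19 tested called up and 7 down (median log2 fold change 0.71). The fallers with the most counts were of cell division. Cyclin CYCA1;1 (c154389_g1) went from 33.8 and 33.98 to 10.97 and 15.1 CPM and the microtubule protein MAP65-7 (c153684_g1) from 35.6 and 38.1 to 2.99 and 4.62 CPM, a fall by 3.26 on the log2 scale (SE 0.28). HMGB3 (c146811_g3), a chromatin protein, rose from 19.6 and 19.2 to 42.0 and 44.003 CPM.

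Over the 1861 named unigenes tested, the 10 largest rises and the 10 largest falls were taken among those with at least 10 CPM on average and groups that did not overlap. Unigenes without a name here were not ranked. Besides FTSH6, HSFA3 and the DnaJ protein, the rises held unigenes nearly silent in control leaves. An F-box associated effector (c128658_g1) had 1 control count and 90.7 and 90.5 CPM after heat, 1280.2-fold (95% interval of the counts 229 to 50610.4) higher. A protein with an hAT dimerisation domain, typical of transposases (c147761_g1), had 3 control counts and 202 and 212 CPM after heat, 975-fold (95% interval of the counts 333 to 4730.4) higher. An F-box protein (c149592_g1) was 577-fold (95% interval of the counts 197 to 2799) higher and the GCN2-like kinase (c108357_g1) 378-fold (95% interval of the counts 129 to 1834) higher, both from 3 control counts. An NB-ARC resistance protein (c146048_g4) stood at 98.6 and 76.8 CPM and the receptor kinase CRK8 (c145343_g1) at 24.6 and 37.1 CPM after heat, from 1 control count each. VFB3 (c110817_g2), another F-box protein, went from 0.158 and 0.513 to 229 and 209 CPM.

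Most of the 10 largest falls were of enzymes, transporters and regulators with clear levels in control leaves. A pair of unigenes named as the methyltransferase ASMT, the last enzyme of melatonin synthesis, were among them. From 63.4 and 48.8 CPM the unigene c141471_g1 went to 1.16 and 0.298 CPM, by 6.27 on the log2 scale (SE 0.37, adjusted p = 7.03e-08, edgeR), and c127398_g1 from 76.8 and 70.8 to 2.16 and 4.03 CPM. GSTU17 (c130722_g1), a glutathione transferase, went from 20.6 and 24.1 to 0.332 and 1.04 CPM, and PDR12 (c150387_g1), an ABC transporter, from 21.7 and 16.7 to 0.831 and 1.04 CPM. An acyltransferase of the HXXXD family (c143135_g1) fell from 86.2 and 90.3 to 4.99 and 4.18 CPM. A PLC-like phosphodiesterase (c142333_g1), a RING finger protein (c147331_g1) and a DNA glycosylase (c149354_g1) fell by 5.11, 4.80 and 4.68 on the log2 scale (SEs 0.47, 0.35 and 0.34). The ACHT4 unigenes described above complete the falls.

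Unigenes with the same best match did not always move together. Of 223 Arabidopsis matches with at least 2 called unigenes, 63 had calls up only, 92 down only and 68 both ways. Of 1192 assembly components with at least 2 called unigenes, 545 had calls up only, 468 down only and 179 both ways. The components cover all unigenes tested and the matches only named ones, mostly called changed by the study, so the 2 sets are not alike. The largest set with a single match was of a DNAse I-like protein (AT1G43760), with 37 of 45 tested unigenes called up and 7 down. Another large set, of a retrotransposon gag protein (AT1G21280), had 6 of 11 called up and 2 down. Going mostly down were unigenes of a carrier of the major facilitator superfamily (AT1G22540), with 7 of 8 called down, and of ASMT (AT4G35160), with 6 of 7 called down. Each name with several unigenes can hold gene copies, alleles or fragments of 1 transcript, which the counts do not separate.

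A few members show how the 12 h values relate to those of 2 h, from a direct comparison of the heated groups, which share their controls. ARF1 had a log2 fold change against the controls of -0.40 at 2 h and 1.62 at 12 h, and the difference of 12 h minus 2 h was 2.02 (SE 0.14, adjusted p = 1.11e-06, edgeR). PYL5 stood at 0.15 at 2 h and -3.15 at 12 h, with a direct difference of -3.29 (SE 0.18). For PAP1 the values were -0.47 and -3.53, with a difference of -3.06 (SE 0.24). These 3 were nearer to the controls at 2 h than at 12 h. HSFA3 stood at 6.72 at 2 h and 9.41 at 12 h and was higher at 12 h by 2.69 (SE 0.18), whereas PROT1 stood at 7.81 and 5.39 and was lower at 12 h, with a difference of -2.42 (SE 0.23). HSP23.6 was likewise lower at 12 h than at 2 h, with a difference of -1.20 (SE 0.17). Among the unigenes tested, 15.1% were called up and 8.98% down at 2 h, and the heat 2 h libraries had the widest spread of the 3 groups.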

How the data were processed

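RNA from tall fescue leaves was sequenced in 6 libraries, 2 each of control, heat 2 h and heat 12 h. The authors deposited 1 table of expected counts per unigene, estimated on a Trinity assembly and not scaled between libraries. The study's methods name RSEM for these counts, while the submitters' processing notes list Bowtie2 2.2.3, TopHat2 2.0.12, HTSeq 0.6.1 and DESeq 1.18.0. Both accounts were kept, as 0.157% of the values were not whole. Counts from fragments or close copies of 1 gene can be split between unigenes by such an assembly.

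Expected counts were rounded and kept by filterByExpr (minimum count 10), which left 97.7 to 98.4% of the counts. TMM factors scaled the libraries, and edgeR 4.0.16 (R 4.3.3) fitted all 6 with its quasi-likelihood test, with 1 coefficient per group and 3 residual degrees of freedom. The contrast heat 12 h minus control was called at a 2-fold change or more with a p of 0.05 or less, adjusted over the unigenes tested after Benjamini and Hochberg. The standard error (SE) of a log2 fold change is its size divided by the root of the F statistic. Replicates differed by more than sampling noise in every group. Intervals and floors cover counting error only. Against 1 to 3 counts a ratio with its exact 95% interval is given, and against 0 a bound set at 3 counts over the group.

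Members and groups were chosen with earlier results of these data known. Groups came from descriptions in the study's supplementary tables, of whose table of changed unigenes 1472 rows, a part, were used. Of the matches with at least 2 called unigenes, most lie from locus AT1G01350 to AT1G48410, on a single Arabidopsis chromosome. By rule, in each group the riser and the faller with the highest mean and the largest change are named, among called members with at least 10 CPM on average and groups that do not overlap. The rule also takes the 10 largest rises and falls, all clock, light receptor and heat shock factor unigenes and those with primers. Other members were chosen after their values were seen. Alternatives were other scalings and filters, DESeq2 1.42.0, the 4 libraries alone, a replicate block, other thresholds and each library left out. No genome was used, so no positions are given.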

Additional observations from a re-analysis of the deposited data

Results flagged for a closer look

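Of 184 group members called against the controls at both 2 h and 12 h, 1 met 2 conditions, the hexose carrier STP1 (c150481_g1). Its calls pointed in opposite directions, and its heated groups differed directly at the same limits. It stood at 56.4 and 53.8 CPM in the controls, 17.5 and 29.9 CPM in the heat 2 h libraries and 130 and 112 CPM in the heat 12 h libraries. Its log2 fold change against the controls was -1.22 at 2 h and 1.13 at 12 h. The direct comparison of the heated groups gave a log2 difference, 12 h minus 2 h, of 2.355 (SE 0.23, adjusted p = 1.27e-05, edgeR). The 3 groups did not overlap. Both changes share the same control libraries, and groups of 2 libraries are too small for a test of outlying samples.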

How the results depend on the processing

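The counts of called unigenes kept their size within 1.5 times under most alternatives. With at least 10 counts demanded in every library, 15416 unigenes were tested, 2969 were called up and 3046 down, and the group members called fell to 118 up and 117 down. With a log2 fold change of at least 2, 4187 were up and 3261 down, with 111 and 118 group members. DESeq2 called 6431 up and 5039 down, and the 4 libraries alone gave 6936 and 6503. Leaving out 1 of the 4 libraries gave 6556 to 6793 up and 5416 to 5911 down over all unigenes, and 171 to 179 up and 192 to 204 down among group members. Without heat 2 h replicate 1 or 2, chosen after seeing the data, 8354 and 8647 were up. RLE size factors gave 7388 up and 6234 down, where library totals alone gave more falls than rises. Same-numbered replicates of control and heat 12 h did not deviate together (correlation 0.0493 over 9013 unigenes, -0.0528 and -0.0373 for the other pairs of groups). Whether same-numbered libraries were grown or prepared together cannot be told from these values. With a replicate block 6943 unigenes were up and 6340 down. Of 1122 alternative values for the 89 unigenes named by rule, 1111 kept their direction and call, 11 lost the call and none changed sign. Those 11 belong to HSFA1D (c146225_g1), GI (c142108_g1), BSL3 and ATAF1. Unigenes that a setting did not test are not among the 1122. With at least 10 counts in every library, 54 of the 89 kept direction and call and 1 lost the call. The rest of the 89 were not tested there, so their stability under that filter is unknown. Depth limits unigenes with few counts, since 3 counts in a library equal 0.385 to 0.499 CPM, and 2 libraries a group leave 3 residual degrees of freedom.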

Other observations

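In the study's primer table the forward and the reverse primer of HSP23.6 (c138951_g1) are the same sequence, agggctttattccatcgtgtg, the only such case among 20 pairs. A unigene named CYP710A (c150294_g3), a sterol desaturase in Arabidopsis, has primers but belongs to no group, and went from 0.632 and 1.67 CPM in the controls to 5.98 and 6.12 CPM after 12 h of heat. An AWPM-19-like membrane protein (c138310_g1), also with primers, had 1 control count and stood at 6.15 and 7.76 CPM after heat, 98.8-fold (95% interval of the counts 17.3 to 3947) higher at equal library size.

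The unigene with the most counts in all 4 libraries (c142951_g1) carries no name in the tables used here. It held 8.76 and 8.84% of the counts in the controls and 7.23 and 7.28% after heat, and was not called.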
